A study of Mus musculus with 12 samples.

Results

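The genes described here are 10 genes of repulsive and netrin-type axon guidance: the ligand genes Slit1, Slit2, Ntn1 and Rgma, and the receptor genes Robo1, Robo2, Dcc, Unc5c, Unc5d and Neo1. They were taken by name, and all 10 were measured among the 18193 genes of the array. Each was read from the probe set that names it alone and has the highest mean over the 12 arrays. The 10 genes have 23 such probe sets, and Rgma, Robo2 and Unc5d have 1 each. RNA came from cultures of cerebellar granule neurons (CGNs), small glutamatergic cells of the cerebellar cortex, made from 7-day-old pups of the strain B10.RIII and kept for 3 days. The 4 groups held 3 cultures each: untreated Ifnb+/+, untreated Ifnb–/–, which lack the gene of interferon-β, and each genotype with recombinant IFN-β (rIFN-β) at 100 U/ml for 24 hr. The labels call the wild-type cultures Ifnb+/+, and the methods list heterozygous littermates among the wild-type mice of the study. Whether the 3 cultures of a group came from separate litters is not stated, so the p-values measure no more than the variation among these cultures, which may be technical.

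Slit proteins are secreted ligands that repel growing axons and migrating neurons through Robo receptors. Netrin 1 attracts axons that carry DCC and repels axons that also carry receptors of the UNC5 family, and granule cell precursors are known to respond to netrin through such receptors. RGMa is a membrane-anchored ligand of neogenin, the product of Neo1, and halts the growth of neurites. Interferon-β acts through its receptor on STAT transcription factors, which bind the interferon-stimulated response element (ISRE) and the gamma-activated site (GAS) in promoters.

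Values are log2 intensities after RMA, the method that corrects background, equalizes the distributions of the arrays and summarizes the probes of a probe set. A difference of 1 on this scale is a factor of 2, and levels of different probe sets cannot be set against each other. Ifit1, an interferon-induced gene, read 3.66 to 4.06 on the untreated Ifnb+/+ arrays, 2.65 to 2.92 on the untreated Ifnb–/– arrays and 9.36 to 11.44 on the 6 arrays with rIFN-β, and Cxcl10, which encodes an interferon-induced chemokine, separated treated from untreated arrays as well (3.71 to 4.59 against 10.89 to 12.7). The Ifit1 difference between the untreated genotypes did not pass (log2 fold change −1.05, adjusted p = 0.185, limma). All untreated Ifnb–/– arrays lay below all untreated Ifnb+/+ arrays in 18.1% of all genes. Ifnb1 read 2.48 to 3.06 on all 12 arrays and does not check the genotype labels. The granule neuron transcription factor gene Neurod1 read 11.71 in untreated Ifnb+/+ and 12.36 in untreated Ifnb–/–, while Gabra6, a marker of mature granule neurons, read 5.46 and 6.18, and neither difference passed the test (adjusted p of 0.175 and 0.147, limma). Of 18 granule neuron markers, 0 passed between the untreated genotypes by limma. At an unadjusted p under 0.05, 5 had a higher value and 1 a lower one, the neuronal tubulin gene Tubb3 (log2 fold change −0.67). Of all genes 0.115% passed, and 8.4% were higher and 12.8% lower at the unadjusted level. The SD of a gene within a group had a median of 0.201 in untreated Ifnb+/+ and 0.0872 in untreated Ifnb–/–. For the 10 guidance genes this median was 0.262 and 0.0669. Thus the untreated Ifnb+/+ arrays, which serve as control in 2 of the comparisons, spread most.

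The array annotation gives no coordinates, and RefSeq promoter windows of 300 bases spanning transcription starts (build GRCm38.p6) were matched by symbol for 5 of the genes at 7 starts: Robo1, Robo2 (3 starts), Slit2, Unc5c and Neo1. None of the 7 windows held the ISRE core GAAANNGAAA or the GAS letters TTCNNNGAA on either strand. Of all 32851 promoter windows, 3.44% held the ISRE core and 8.3% the GAS. The windows of the interferon-induced genes Ifit1 and Cxcl10 held 2 ISRE cores and 1 ISRE core. A window without these letters says nothing on sites elsewhere. The first Robo2 start is shown because Robo2 varied most among the 10 genes, and Ifit1 as the gene with the ISRE cores, whose letters are in capitals (both motifs would be capitalized on either strand, and the 2 motifs share no base in these windows). Which of the 3 Robo2 starts gave the RNA that its probe set read is not known. The windows are chr16:75447244-75447543 on the minus strand for Robo2 and chr19:34640639-34640938 on the plus strand for Ifit1, written 5′ to 3′.
Robo2: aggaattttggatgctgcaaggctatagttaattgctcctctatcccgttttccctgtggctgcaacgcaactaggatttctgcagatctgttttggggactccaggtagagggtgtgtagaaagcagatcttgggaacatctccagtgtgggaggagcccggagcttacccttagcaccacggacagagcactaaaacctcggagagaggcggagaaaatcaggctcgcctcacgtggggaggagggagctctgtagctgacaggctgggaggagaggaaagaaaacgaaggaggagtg
Ifit1: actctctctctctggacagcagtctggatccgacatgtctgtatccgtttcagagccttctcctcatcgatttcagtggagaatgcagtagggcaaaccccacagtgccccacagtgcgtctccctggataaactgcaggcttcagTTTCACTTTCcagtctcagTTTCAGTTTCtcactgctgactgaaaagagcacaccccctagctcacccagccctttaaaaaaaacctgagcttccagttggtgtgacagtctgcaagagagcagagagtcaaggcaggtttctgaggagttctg

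Among the 10 guidance genes, Rgma was the gene that differed between groups after adjustment over all genes. It was lower in untreated Ifnb–/– CGNs than in untreated Ifnb+/+ CGNs, and lower in Ifnb+/+ CGNs with rIFN-β than without. Unc5d and Robo2 read higher in untreated Ifnb–/– CGNs and Slit2 read lower with rIFN-β in Ifnb–/– CGNs, and these differences did not pass. The other 6 genes differed between group means by at most 0.37 on the log2 scale.

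**Figure D1:**
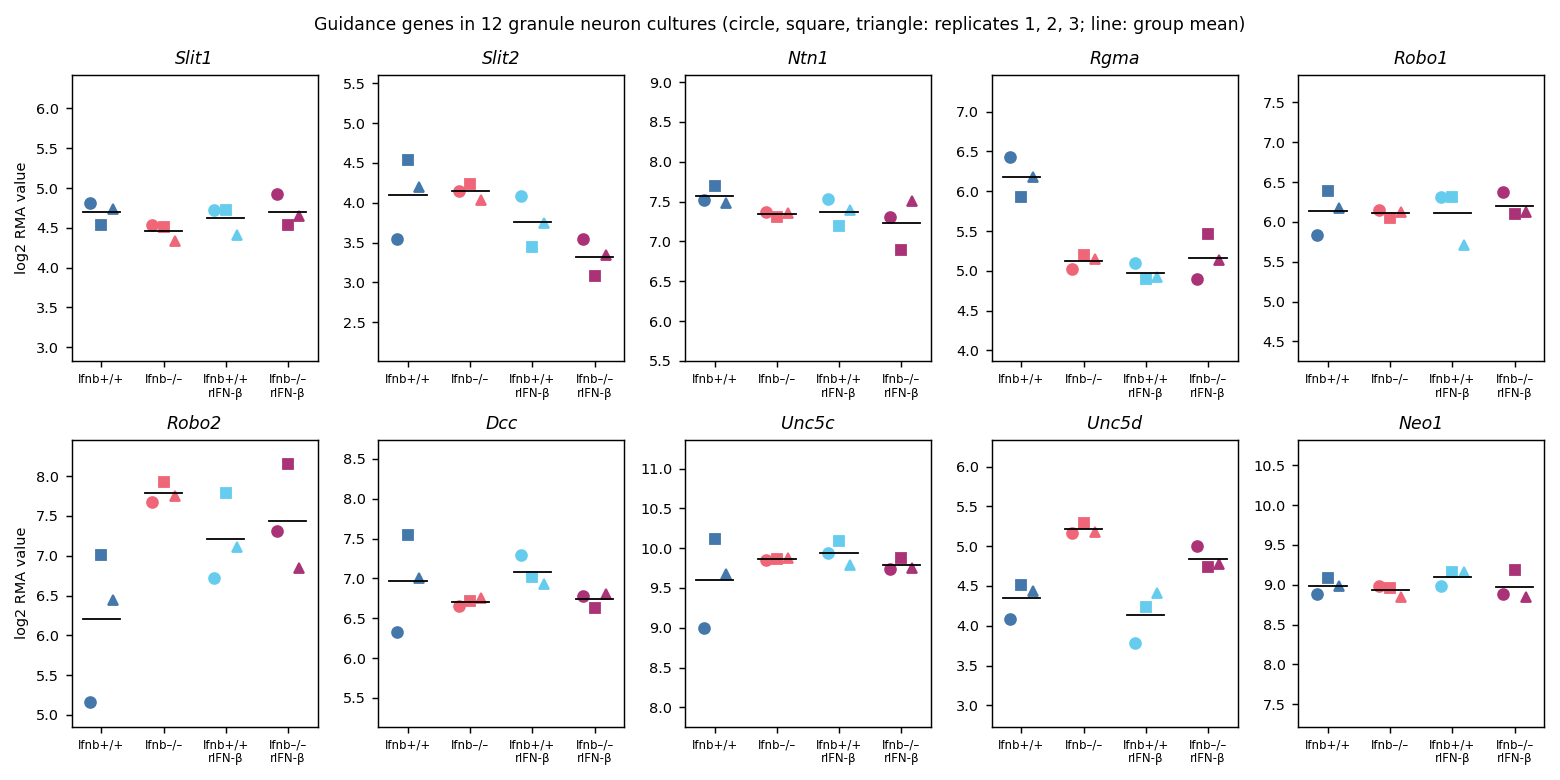
Log2 RMA value (y axis, each panel spanning the same width of 3.6 log2 units) of the 10 guidance genes on the 12 arrays, by group (x axis). Points are single cultures and lines are group means, and the 3 untreated Ifnb+/+ values of Rgma (5.93 to 6.43) lie above the 9 others, while all 6 Ifnb–/– values of Unc5d lie above all 6 Ifnb+/+ values.

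Rgma encodes the ligand of neogenin. Its log2 value in untreated Ifnb+/+ CGNs was 6.43, 5.93 and 6.18 in replicates 1 to 3, and in untreated Ifnb–/– CGNs it was 5.02, 5.20 and 5.15. With rIFN-β it was 5.10, 4.90 and 4.92 in Ifnb+/+ CGNs and 4.90, 5.46 and 5.14 in Ifnb–/– CGNs. The 3 untreated Ifnb+/+ arrays thus stood above the 9 others, which overlapped among themselves. The same separation of the 3 untreated Ifnb+/+ arrays held for 2.39% of all genes. The log2 fold change in untreated Ifnb–/– against Ifnb+/+ was −1.06 (standard error 0.16, 95% interval −1.40 to −0.71, adjusted p = 0.0304, limma). The change with rIFN-β in Ifnb+/+ was −1.21 (standard error 0.16, 95% interval −1.55 to −0.86, adjusted p = 0.00116, limma). Both comparisons use the same 3 untreated Ifnb+/+ arrays. In Ifnb–/– CGNs the change with rIFN-β was 0.04 (95% interval −0.30 to 0.39, adjusted p = 0.918), and between the genotypes with rIFN-β it was 0.19 (95% interval −0.15 to 0.54, adjusted p = 0.988). The rIFN-β effects of the 2 genotypes differed by 1.25 (standard error 0.22), which ranked 9 of 18193 by p and did not pass the adjustment over all genes (adjusted p = 0.211, limma interaction term). Without untreated Ifnb+/+ replicate 2 it passed (1.37, adjusted p = 0.0414). The mean of Rgma over the arrays, 5.36, was reached or passed by 1 of 19 genes of other organs, which served as a reference for absent transcripts. Another of these, Prm1, had a mean of 5.24, within the 4.90 to 5.46 of the 9 lower Rgma arrays. The median mean of the 19 was 3.24. Whether Rgma read near the level of absent transcripts on those arrays cannot be told from these references.

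The call of Rgma between the untreated genotypes was close to the threshold. Without 1 of 6 arrays (untreated Ifnb+/+ replicates 1 and 3, each of the 3 untreated Ifnb–/– arrays, and treated Ifnb–/– replicate 3) the adjusted p lay between 0.0616 and 0.186, with a log2 fold change of −0.93 to −1.09. It was also lost when the fit held the compared groups only (adjusted p = 0.0655) and with the adjusted t-test of the methods (0.2). The call with rIFN-β in Ifnb+/+ was kept without any 1 of the 12 arrays, with an adjusted p of 0.00058 to 0.00942, and was lost with the adjusted t-test of the methods (0.28).

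As in Rgma, the 3 untreated Ifnb+/+ arrays stood above the 9 others in the mean of microglial markers and in some single markers. The mean log2 value of 13 microglial markers was 6.33 to 6.41 in untreated Ifnb+/+ and 5.84 to 5.99 in untreated Ifnb–/–. On the treated arrays it was 5.47 to 5.84 for Ifnb+/+ and 5.56 to 5.72 for Ifnb–/–. In this mean the treated Ifnb–/– arrays lay below the untreated Ifnb–/– arrays, which was not so for Rgma. In untreated Ifnb+/+ replicates 1 to 3 the mean was 6.35, 6.41 and 6.33, highest in replicate 2, where Rgma was lowest. Of the 13 markers, 7 (Csf1r, C1qa, C1qb, C1qc, Trem2, Fcrls and Cd68) had all 3 untreated Ifnb+/+ arrays above the 9 others, and 6 did not. Among those 6, Aif1 read 6.23 in untreated Ifnb+/+ and 6.17 in untreated Ifnb–/–, and Ptprc read 5.49 and 5.65 there and 5.93 in Ifnb+/+ with rIFN-β. P2ry12 had a higher value with rIFN-β in Ifnb+/+ (3.18 against 2.72, adjusted p = 0.234, limma). Trem2, a receptor gene of microglia, was lower in untreated Ifnb–/– (log2 fold change −1.03, adjusted p = 0.0164, limma), the 1 marker of 13 that passed there (0.115% of all genes). With rIFN-β in Ifnb+/+, 11 of 13 markers had a negative log2 fold change. Of these, 6 passed as lower at an adjusted p under 0.05 (limma), with 3.14% of all genes passing in either direction. In Ifnb–/– with rIFN-β, where the change of Rgma was 0.04, 0 of 13 markers passed by limma and 4 (Aif1, Csf1r, Itgam and Fcrls) were lower at an unadjusted p under 0.05, with log2 fold changes of −1.03 to −0.57. Of all genes, 1.67% passed there and 5.44% were lower at the unadjusted level. The part of microglial RNA in the Rgma values was not tested. In such bulk cultures, fewer cells of a type and less RNA per cell cannot be told apart. The 3 genes with the pattern most like Rgma over the 12 arrays, by root mean square difference of values centred on each gene's mean, were Ctsd (0.185), which encodes cathepsin D, the sugar phosphate transporter gene Slc37a2 (0.186) and Slc2a1 (0.195), which encodes a glucose transporter. The root mean square of the centred Rgma values themselves was 0.505.

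**Figure D2:**
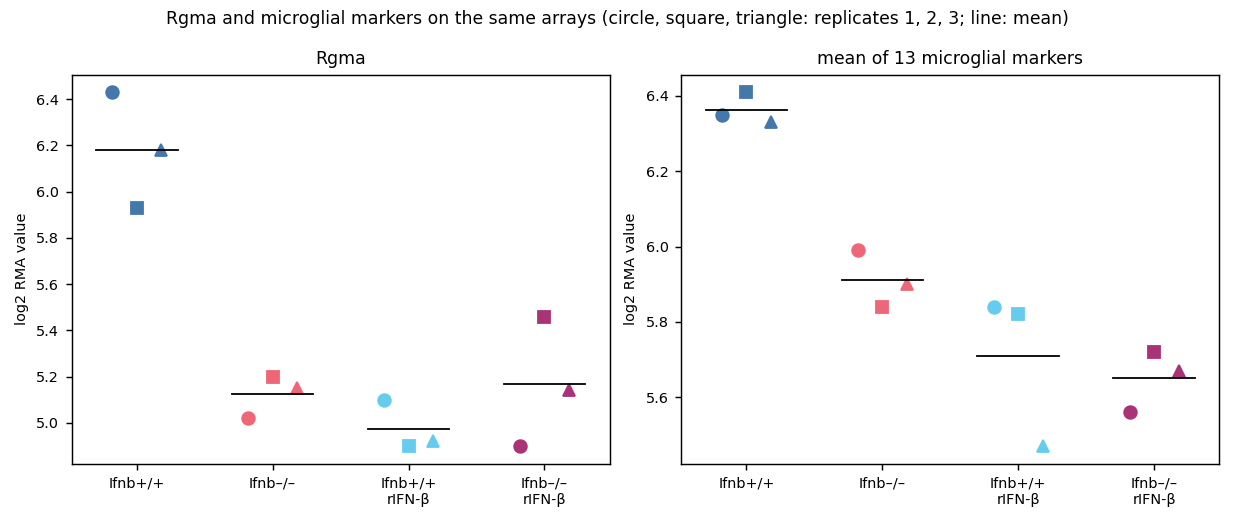
Log2 RMA value (y axes, scaled separately) of Rgma and mean log2 value of 13 microglial markers on the same 12 arrays, by group (x axis). Points are cultures and lines are means, and in both panels the 3 untreated Ifnb+/+ arrays lie above the other 9, from 5.93 to 6.43 for Rgma and from 6.33 to 6.41 for the markers.

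The other ligand genes did not pass in any comparison. Slit2 read 3.54, 4.54 and 4.2 in untreated Ifnb+/+ and 4.15, 4.24 and 4.04 in untreated Ifnb–/–. With rIFN-β it read 4.08, 3.45 and 3.74 in Ifnb+/+ and 3.54, 3.08 and 3.35 in Ifnb–/–. The treated Ifnb–/– arrays all lay below the untreated Ifnb–/– arrays, while the untreated Ifnb+/+ arrays spread from 3.54 to 4.54, a range that held the untreated Ifnb–/– values. The log2 fold change with rIFN-β in Ifnb–/– was −0.82 (standard error 0.23, 95% interval −1.33 to −0.32, adjusted p = 0.111, limma), against −0.33 (standard error 0.23, adjusted p = 0.443) in Ifnb+/+, and the 2 effects were not shown to differ (interaction −0.49, adjusted p = 0.42). The change in Ifnb–/– passed when the fit held the compared groups only (adjusted p = 0.0109) and without untreated Ifnb+/+ replicate 1 (0.0233). Leaving out untreated Ifnb+/+ replicate 1 or 2 took the change in Ifnb+/+ to −0.61 or −0.11, and the interaction to −0.21 or −0.71, and none of these passed. Slit2 was dim: its mean of 3.83 over the arrays was reached or passed by 8 of 19 genes of other organs, such as liver and testis, that served as a reference for absent transcripts. Its other 2 probe sets were dimmer (means of 2.48 and 2.17), and their log2 fold changes with rIFN-β in Ifnb–/– were −0.38 and 0.02.

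Nearest to Slit2 in pattern were Spock1 (0.146), Pcdh8 (0.151) and Gad1 (0.169), which encode a proteoglycan, a protocadherin and a GABA-synthesizing enzyme. The mean of 8 markers of GABAergic interneurons was 6.90 to 6.92 in untreated Ifnb–/– and 6.0 to 6.59 in Ifnb–/– with rIFN-β. In untreated Ifnb+/+ it was 6.43, 7.40 and 7.02 in replicates 1 to 3, the order of the Slit2 values. Means of 7 Purkinje cell markers (5.26, 5.71 and 5.47) and 10 meningeal fibroblast markers (6.51, 6.91 and 6.69) had this order too. The Purkinje cell mean was 5.67 to 5.82 in untreated Ifnb–/– and 4.97 to 5.57 in Ifnb–/– with rIFN-β. The meningeal mean was 6.67 to 6.72 and 6.44 to 6.58. Means of granule neuron, progenitor, astrocyte, oligodendrocyte and endothelial markers had the reverse order. The part of RNA from any of these cell types in the Slit2 values was not tested.

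Slit1 ranged from 4.33 to 4.92 over all arrays and was dim too, with a mean of 4.62 that 4 of 19 genes of other organs reached or passed. It read 4.81, 4.53 and 4.74 in untreated Ifnb+/+ and 4.53, 4.51 and 4.33 in untreated Ifnb–/–, where the highest value lay just under the lowest of Ifnb+/+. The log2 fold change was −0.24 (95% interval −0.54 to 0.06, adjusted p = 0.312, limma). Ntn1, the netrin 1 gene, read 7.52, 7.70 and 7.48 in untreated Ifnb+/+ and 7.37, 7.30 and 7.36 in untreated Ifnb–/–. These groups did not overlap, and the log2 fold change of −0.23 (95% interval −0.56 to 0.10, adjusted p = 0.384) did not pass. With rIFN-β, Ntn1 read 7.53, 7.19 and 7.39 in Ifnb+/+ and 7.31, 6.89 and 7.51 in Ifnb–/–, within the range of the untreated arrays but for 2 lower values. The dimmer probe sets of Slit1 and Ntn1 (means of 3.30 and 3.07) had log2 fold changes of −0.29 and −0.23 between the untreated genotypes.

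Robo2 encodes a Slit receptor and had the widest range of the 10 genes. It read 5.16, 7.01 and 6.45 in untreated Ifnb+/+ and 7.68, 7.93 and 7.75 in untreated Ifnb–/–. With rIFN-β it read 6.72, 7.79 and 7.11 in Ifnb+/+ and 7.31, 8.15 and 6.84 in Ifnb–/–. The untreated genotypes did not overlap, and replicate 1 of untreated Ifnb+/+ lay 1.29 below the next array of its group. The log2 fold change in untreated Ifnb–/– was 1.57, a factor of 2.98, with a standard error of 0.44 (95% interval 0.63 to 2.52, adjusted p = 0.158, limma). It was 1.05 without untreated Ifnb+/+ replicate 1 (adjusted p = 0.427) and 1.98 without replicate 2 (adjusted p = 0.017). The change with rIFN-β in Ifnb+/+ was 0.99 (95% interval 0.05 to 1.94, adjusted p = 0.232), against −0.35 (95% interval −1.30 to 0.60, adjusted p = 0.726) in Ifnb–/–. The change in Ifnb+/+ was 0.47 without untreated Ifnb+/+ replicate 1 (adjusted p = 0.648) and 1.40 without replicate 2 (adjusted p = 0.0463). The difference between these effects did not pass (−1.34, adjusted p = 0.325, and −1.75 to −0.82 without 1 array). With rIFN-β in both, the genotypes differed by 0.23 (95% interval −0.72 to 1.18). The genes with the most similar pattern were 6330415B21Rik (0.239), Luc7l2 (0.249), which encodes a splicing factor, and Camk2d (0.254), which encodes a calcium-dependent kinase.

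Robo1, the gene of a related Slit receptor, read between 5.71 and 6.39 on all arrays. Its group means of 6.11 to 6.20 differed by less than the spread within groups. Its log2 fold change between the untreated genotypes was −0.03 (95% interval −0.41 to 0.36, adjusted p = 0.945, limma), and its dimmer probe sets gave −0.12 and −0.01.

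**Figure D3:**
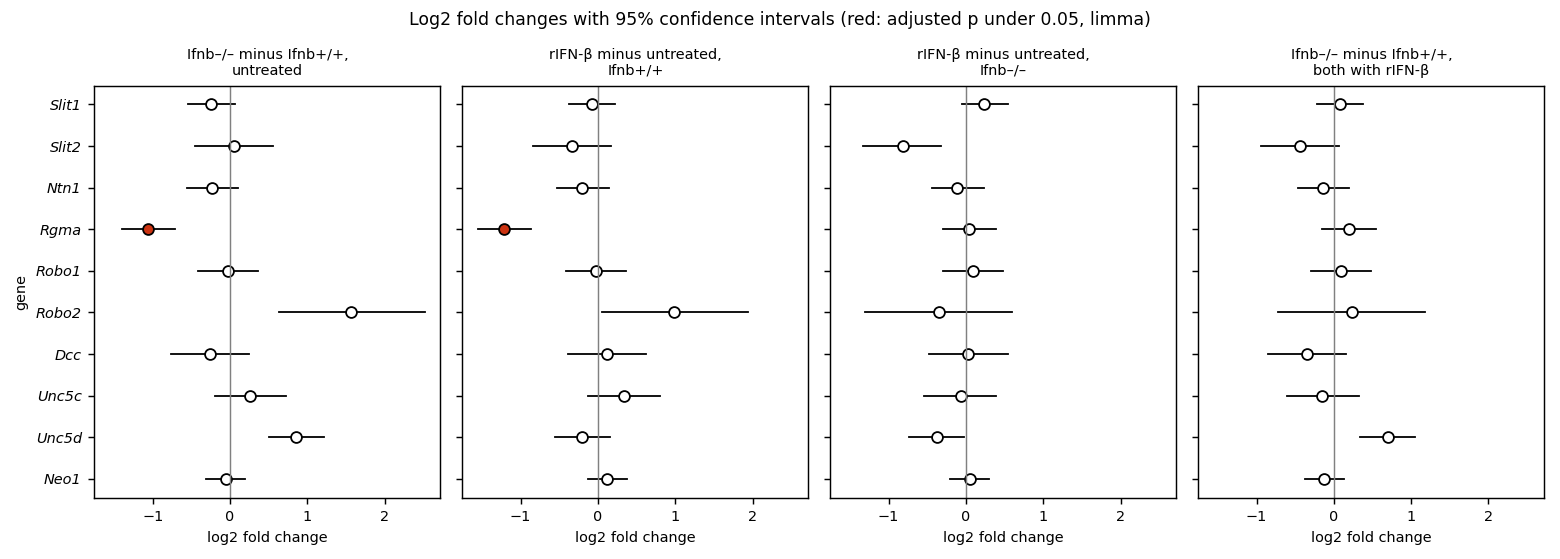
Log2 fold change (x axis) with its 95% confidence interval for the 10 guidance genes (y axis) in 4 comparisons of group means over 12 arrays. Filled red points passed at an adjusted p under 0.05, which held for Rgma in the first panel (−1.06) and the second (−1.21), and Unc5d lay at 0.86 and 0.70 in the 2 comparisons of genotypes.

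Unc5d encodes a repulsive netrin receptor of the UNC5 family. It read 4.09, 4.51 and 4.44 in untreated Ifnb+/+ and 5.17, 5.29 and 5.18 in untreated Ifnb–/–. With rIFN-β it read 3.78, 4.23 and 4.41 in Ifnb+/+ and 5.0, 4.74 and 4.77 in Ifnb–/–. All 6 Ifnb–/– arrays lay above all 6 Ifnb+/+ arrays, a separation found for 0.115% of all genes (21 of 18193). The log2 fold change in Ifnb–/– was 0.86 untreated (standard error 0.16, 95% interval 0.51 to 1.22, adjusted p = 0.0742, limma), a factor of 1.82. With rIFN-β in both genotypes it was 0.70 (standard error 0.16, 95% interval 0.34 to 1.05, adjusted p = 0.282), a factor of 1.62. Neither passed, and they ranked 48 and 71 by p among 18193 genes. The untreated difference passed with each array centred on its median (0.95, adjusted p = 0.0472), without untreated Ifnb+/+ replicate 2 (0.94, adjusted p = 0.0158) and without treated Ifnb+/+ replicate 1 (0.86, adjusted p = 0.0378). The change of Unc5d with rIFN-β was −0.37 in Ifnb–/– (95% interval −0.73 to −0.02, adjusted p = 0.321) and −0.21 in Ifnb+/+ (95% interval −0.56 to 0.15, adjusted p = 0.516).

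Of 18 granule neuron markers, 2 (Gabra6 and Chn2) showed the same separation of genotypes as Unc5d. Gabra6 was higher in Ifnb–/– than in Ifnb+/+ with rIFN-β in both (6.63 against 5.19, adjusted p = 0.0221, limma), the 1 marker of 18 that passed there (0.0605% of all genes). The mean of the 18 markers was 8.43 to 8.68 in untreated Ifnb+/+ and 8.70 to 8.78 in untreated Ifnb–/–. On the treated arrays it was 8.40 to 8.62 for Ifnb+/+ and 8.56 to 8.89 for Ifnb–/–. The part of these markers in the Unc5d values was not tested. Unc5d was dim, with a mean of 4.63 that 3 of 19 genes of other organs reached. Nearest to it in pattern were Exph5 (0.206), the protocadherin gene Pcdh7 (0.209) and Ptpn22 (0.218), which encodes a phosphatase.

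Unc5c, the gene of another UNC5 receptor, read 9.0, 10.12 and 9.68 in untreated Ifnb+/+ and 9.85, 9.86 and 9.88 in untreated Ifnb–/–. With rIFN-β it read 9.94, 10.09 and 9.79 in Ifnb+/+ and 9.74, 9.88 and 9.75 in Ifnb–/–. The untreated Ifnb+/+ arrays spanned all others, and the log2 fold change between the untreated genotypes was 0.26 (95% interval −0.20 to 0.73, adjusted p = 0.474, limma). Without untreated Ifnb+/+ replicate 2 the change with rIFN-β in Ifnb+/+ was 0.60 (adjusted p = 0.04), without replicate 1 it was 0.04 (adjusted p = 0.952), and with all arrays it was 0.34 (adjusted p = 0.398). The probe sets of Unc5c differed: with rIFN-β in Ifnb–/– the brightest gave −0.07 and the other, with a mean of 8.85, gave −0.72 (adjusted p = 0.145 over all probe sets).

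Dcc, the gene of the attractive netrin receptor, read 6.33, 7.55 and 7.01 in untreated Ifnb+/+ and 6.65, 6.72 and 6.75 in untreated Ifnb–/–. With rIFN-β it read 7.30, 7.02 and 6.93 in Ifnb+/+ and 6.78, 6.63 and 6.80 in Ifnb–/–. With rIFN-β the genotypes did not overlap, and the log2 fold change of −0.35 (95% interval −0.85 to 0.16, adjusted p = 0.988, limma) did not pass. The probe sets of Dcc differed: one with a mean of 6.83 gave −0.05 between the untreated genotypes and −0.37 with rIFN-β in Ifnb–/–. The brightest gave −0.26 and 0.03, and the dimmest, with a mean of 5.09, gave −0.35 and −0.03. None of these passed. Neo1, the neogenin gene, was the steadiest of the 10, with values of 8.85 to 9.19 over all 12 arrays. Its log2 fold changes lay between −0.13 and 0.12, and the widest of their intervals reached −0.38 and 0.38. Of its 4 other probe sets, those with means of 8.15 and 3.83 gave −0.04 and −0.05 between the untreated genotypes and those with means of 5.55 and 5.41 gave 0.40 and 0.76, and none passed.

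**Figure D4:**
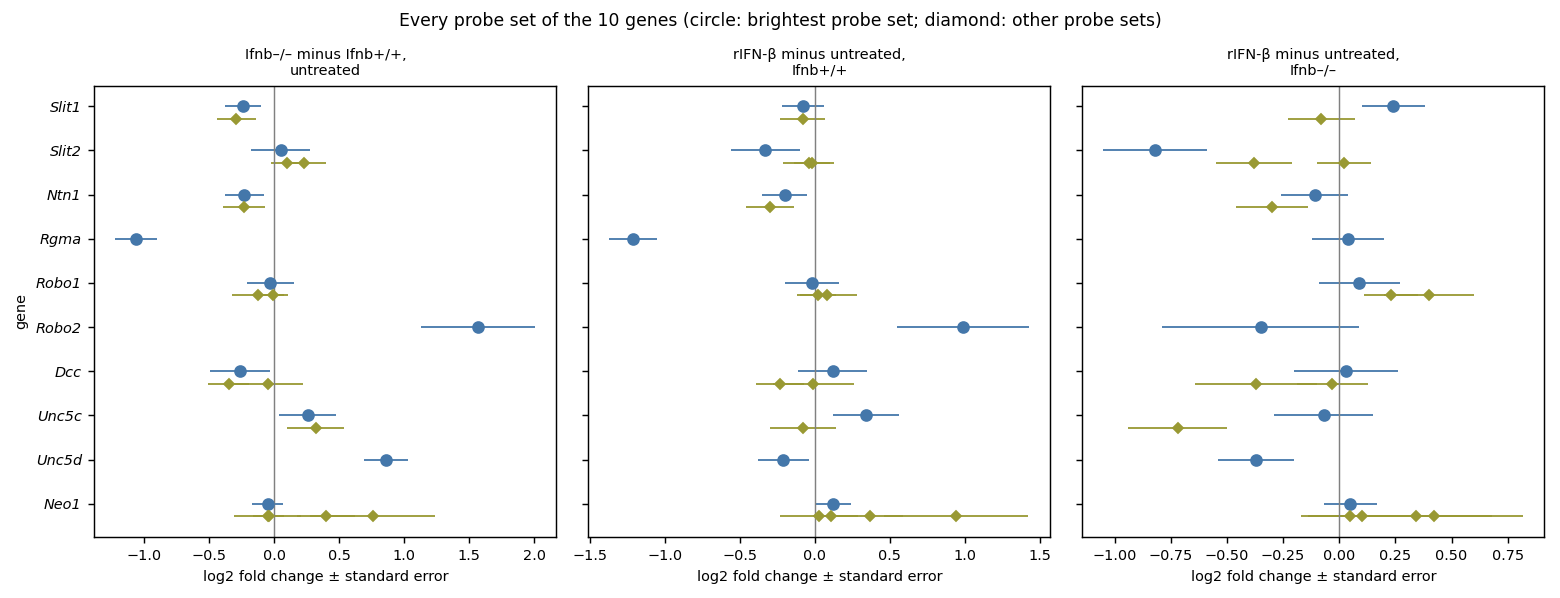
Log2 fold change with its standard error (x axis) of every probe set that names 1 of the 10 guidance genes (y axis), in 3 comparisons. Circles are the brightest probe sets and diamonds the others, and in the third panel the probe sets of Unc5c lie at −0.07 and −0.72.

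The untreated Ifnb+/+ cultures differed among themselves in a way that many of the 10 genes shared. In 7 of the 10 genes (Robo1, Robo2, Slit2, Unc5c, Unc5d, Dcc and Neo1) replicate 1 was the lowest and replicate 2 the highest, an order found in 25.4% of all genes. The reverse order held for Slit1 and Rgma and for 43.7% of all genes, and Ntn1 had neither. Of other pathway genes, 7 of 18 Slit-Robo, 10 of 25 netrin and 10 of 19 RGM and BMP genes had the first order. The reverse held for 6, 9 and 5 of them. Of 31 semaphorin, plexin and neuropilin genes, 8 had the first order and 17 the reverse. The mean of the 10 genes was 6.16, 6.74 and 6.53 in these 3 cultures and 6.54 to 6.60 in the untreated Ifnb–/– cultures. The GABAergic markers had the order of the 7 genes in 7 of 8 cases. In other lists it held for 4 of 18 granule neuron, 3 of 12 progenitor, 3 of 7 Purkinje cell and 4 of 12 astrocyte markers. It held for 5 of 10 meningeal fibroblast, 5 of 13 microglial, 1 of 10 oligodendrocyte and 3 of 11 endothelial markers. Among markers of unipolar brush and cerebellar nuclear neurons it held for 2 of 7. The part of the makeup of the cultures in these values was not tested.

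Counts of the 10 genes were read against those of all genes. Between the untreated genotypes 1 of 10 passed, with 0.115% of all genes passing. At an unadjusted p under 0.05, Robo2 and Unc5d were higher (2 genes) and Rgma lower (1 gene), with 8.4% and 12.8% of all genes. Groups did not overlap in 2 higher genes and 3 lower ones (Ntn1, Rgma and Slit1), and in 10.1% and 18.1% of all genes. With rIFN-β in Ifnb+/+, 1 of 10 passed, with 3.14% of all genes. At an unadjusted p under 0.05 these were Robo2 higher and Rgma lower (8.81% and 11.1% of all genes), and the groups of 0 higher genes and 1 lower gene did not overlap (6.67% and 9.28%).

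In Ifnb–/– CGNs with rIFN-β, 0 of the 10 guidance genes passed by limma, with 1.67% of all genes passing, and at an unadjusted p under 0.05 the higher genes were 0 and the lower ones 2 (Slit2 and Unc5d), with 9.16% and 5.44%. Groups did not overlap in 1 higher gene (Slit1) and the same 2 lower genes, with 20.3% and 12.6% of all genes. Between the treated genotypes 0 passed by limma (0.0605% of all genes), 1 (Unc5d) was above and 0 below at an unadjusted p under 0.05 (1.88% and 3.06%), and groups did not overlap in Unc5d above and Dcc below (4.64% and 3.47%). For the interaction 0 passed by limma (0.022% of all genes), with Rgma higher and Robo2 lower at an unadjusted p under 0.05 (10.1% and 5.21%). By the methods' t-test after Benjamini-Hochberg adjustment, 0 of the 10 genes passed in any of the 4 comparisons of groups. The median log2 fold change of the 10 genes was −0.04, −0.05, −0.02 and −0.02 in the 4 comparisons, with −0.09, −0.03, 0.07 and 0.03 over all genes.

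Of the other genes of these pathways, 2 passed in the 4 comparisons, each the only 1 of its list. With rIFN-β, 3.14% of all genes passed in Ifnb+/+ and 1.67% in Ifnb–/–. In a list of 25 other netrin genes, Dapk1, which encodes a death-associated kinase that acts below UNC5 receptors, was higher with rIFN-β in Ifnb+/+ (log2 fold change 1.04, standard error 0.15, adjusted p = 0.00197, limma). In Ifnb–/– its change was 0.27 (adjusted p = 0.418), and the interaction of −0.77 did not pass (adjusted p = 0.323). In a list of 19 other genes of RGM and BMP signaling, Rgmb, which encodes a relative of RGMa, was higher with rIFN-β in Ifnb–/– (0.56, standard error 0.13, adjusted p = 0.0489). In Ifnb+/+ the mean of Rgmb was 7.15 untreated and 7.35 with rIFN-β, a change that did not pass. Its interaction of 0.37 did not pass either (adjusted p = 0.33, limma). Between the untreated genotypes its log2 fold change was −0.28 (adjusted p = 0.233).

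Between the untreated genotypes none of the 18 other Slit-Robo genes passed, and 4 had a higher and 4 a lower value at an unadjusted p under 0.05, where 8.4% of all genes were higher and 12.8% lower. The smallest adjusted p were those of Usp33, which encodes a ubiquitin protease of Robo1 (log2 fold change 0.64, adjusted p = 0.18), and Gpc1, a glypican gene (−0.71, adjusted p = 0.185). Of the netrin genes 3 were higher and 2 lower at that level, led by Ablim1, an actin-binding protein gene (0.53, adjusted p = 0.142), and the adaptor gene Nck1 (0.70, adjusted p = 0.176). Of the RGM and BMP genes 3 were higher and 1 lower, led by Rasa1 (0.68, adjusted p = 0.198) and the kinase gene Rock1 (1.15, adjusted p = 0.215). The lower counts of the netrin and the RGM and BMP lists were under the share of all genes. The median log2 fold change of these 3 lists was −0.05, 0.09 and 0.16.

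Among 31 genes of semaphorins, which form another family of guidance cues, and of their plexin and neuropilin receptors, 0 passed by limma in any of the 5 comparisons. In untreated Ifnb–/–, 2 had a higher value and 2 a lower one at an unadjusted p under 0.05, both under the share of all genes (8.4% and 12.8%). Sema3d, the gene of a secreted semaphorin, had the smallest adjusted p (log2 fold change 0.95, adjusted p = 0.0832), and its change with rIFN-β in Ifnb–/– was −0.59 (adjusted p = 0.161). Plxna2, a plexin gene, read 0.60 higher in untreated Ifnb–/– (adjusted p = 0.187). In Ifnb+/+ with rIFN-β, 1 was higher and 1 lower at that level, Nrp2 (0.42, adjusted p = 0.137) and Plxnb2 (−0.50, adjusted p = 0.11), again under the share of all genes (8.81% and 11.1%).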

How the data were processed

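RNA of 12 CGN cultures was hybridized to Affymetrix expression arrays for mouse, each culture on its own array. The authors applied quantile normalization, summarized probe sets with RMA (version not given in the sources used here) and deposited log2 values of 45037 probe sets. These were not normalized again. Probe sets were joined to symbols through the array annotation: 34945 name 1 gene, 932 several and 9160 none, and the latter 2 kinds were not used. Array medians lay between 4.33 and 4.42, and the number of arrays limits the precision.

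Groups were taken from the sample labels and compared with limma 3.58.1 in R 4.3.3, in a model of 4 group means over 12 arrays (8 residual degrees of freedom) with empirical Bayes moderation. P-values were adjusted by Benjamini-Hochberg over 18193 genes, and a gene was called at an adjusted p under 0.05. The fit was tested on simulated data. Alternatives were other probe set summaries, a minimum mean of 5, quantile normalization once more, centring, array weights, a robust variance with a trend, fits of the compared groups alone, a replicate block, the methods' t-test, other thresholds (unadjusted, with and without a 1.5-fold change) and leaving out each array.

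The 10 genes and all lists were chosen with earlier results of these data known. Named besides the 10 genes were, by a fixed rule, from each list up to 4 genes with the smallest adjusted p of a comparison, the 3 genes nearest in pattern for the 4 genes with the largest range of group means, and Ifnb1, Ifit1 and Cxcl10. Neurod1 and Gabra6 were named as markers of the cell type, and the microglial and granule neuron markers that separate groups were named after their values were seen.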

Additional observations from a re-analysis of the deposited data

How the results depend on the processing

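Of 1115 fold changes under alternatives, 1030 kept their direction and side of the threshold, 25 came to pass, 10 ceased to pass and 50 changed sign, none of which passed. Between the untreated genotypes 1 of the 10 genes passed. The count was 2 with centring, 0 with only the compared groups, 4 with the methods' t-test unadjusted, 0 with it adjusted, and 3 at an unadjusted p under 0.05 with and without a 1.5-fold change. Leaving out 1 array gave 0 to 3. For rIFN-β in Ifnb+/+ the count of 1 became 0 with the adjusted t-test, 2 at an unadjusted p with and without a 1.5-fold change, and 1 to 3 without 1 array. For rIFN-β in Ifnb–/– the count of 0 became 1 with only the compared groups, 2 with the unadjusted t-test, 2 at an unadjusted p, 1 with a 1.5-fold change as well, and 0 to 1 without 1 array. Between the treated genotypes the count of 0 became 1 with the unadjusted t-test and at an unadjusted p with and without a 1.5-fold change, and it was 0 without any 1 array. For the interaction the count of 0 became 2 at an unadjusted p with and without a 1.5-fold change, and 0 to 1 without 1 array. Array weights gave counts of 7, 3, 3, 1 and 4 in these 5 comparisons, but their iteration stopped before its tolerance and gave untreated Ifnb+/+ replicate 3 a weight of 5740, against 0.0986 and 0.138 for the other 2, so that this fit rests on 1 array of that group. The causes of the other shifts were not tested.

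With a replicate block the untreated genotypes had 0 genes passing (Rgma at an adjusted p of 0.0627), and no other count changed. The numbers share only a label: of 18 same-numbered pairs 5 had deviations that correlated above 0.1 (range −0.501 to 0.432), and 5 of 12 arrays correlated best with their own number. The block called 16 genes of all between the untreated genotypes, against 21.

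Changes of sign concerned values that did not pass. With centring, Robo1 and Neo1 became 0.06 and 0.03 between the untreated genotypes, and Robo1, Dcc, Neo1 and Rgma −0.01, −0.08, −0.06 and −0.06 with rIFN-β in Ifnb–/–. With probe sets of a gene averaged, Neo1 became 0.20 untreated and 0.08 treated between genotypes, Robo1 0.02 and Dcc −0.04 with rIFN-β in Ifnb+/+, Dcc −0.12 with rIFN-β in Ifnb–/–, and Slit1 −0.10 between the treated genotypes. With the probe set of smallest p these values were 0.40, 0.33, 0.08, −0.23, −0.37 and −0.29, and the Neo1 interaction was 0.38. With array weights, Slit2 became −0.06 between the untreated genotypes, Neo1 −0.02 and Rgma −0.13 with rIFN-β in Ifnb–/–, Robo2 −0.07 between the treated genotypes and the Dcc interaction 0.01. Without 1 array, ranges that crossed 0 were, between the untreated genotypes, Robo1 −0.17 to 0.10, Slit2 −0.23 to 0.27, Unc5c −0.04 to 0.52 and Dcc −0.57 to 0.04. For rIFN-β in Ifnb+/+ they were Robo1 −0.17 to 0.17, Slit1 −0.16 to 0.03 and Dcc −0.20 to 0.41. For rIFN-β in Ifnb–/– they were Dcc −0.01 to 0.08, Ntn1 −0.24 to 0.07, Neo1 −0.06 to 0.11 and Rgma −0.10 to 0.18. Between the treated genotypes they were Robo1 −0.11 to 0.19, Robo2 −0.13 to 0.52, Slit1 −0.03 to 0.16 and Ntn1 −0.27 to 0.04. For the interaction they were Robo1 −0.08 to 0.26, Dcc −0.38 to 0.23 and Ntn1 −0.05 to 0.26.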
